A study of Mus musculus with 6 samples.

Results

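Lyrm4 and 7 further genes of mitochondrial iron-sulfur cluster assembly (Nfs1, Iscu, Hscb, Glrx5, Isca1, Isca2 and Nfu1) were followed in mouse bone marrow. The members are all probe sets annotated with exactly 1 of these 8 symbols in the authors' deposited table of group comparisons, 12 of 45101 probe sets and 8 of 20678 symbols. Lyrm4 was chosen on its induced against control difference in these arrays, which was among the largest, so its values are given as a description without a test. The other 7 members were taken for their function, with earlier results of these data known. RNA from whole bone marrow was hybridised to 6 Affymetrix mouse arrays. The 3 induced arrays came from c-Jun inducible mice given doxycycline, the inducing drug, at 1 mg/ml in drinking water for 24 hours (day 1), and the 3 control arrays from c-Jun inducible mice before induction (day 0). All mice were 8 weeks old, and each array held RNA of 3 pooled mice. The titles of all 6 arrays carry the tag R-K. Neither its meaning nor the promoter that drives the c-Jun transgene is given in the sources used here. No array of mice that took doxycycline without c-Jun induction was analysed here, so drug, transgene and day cannot be told apart. The signal of Jun itself gave no clear check of the labels: its probe sets 1448694_at (4.3, 2.6 and 1.5 on induced arrays, against 0.2, 2.0 and 1.2 on control arrays) and 1417409_at (1.8, 0.1 and 1.1 against 1.2, 2.5 and 1.1) lay near background, overlapped between the groups and did not pass the test (limma, adjusted p = 0.446 and 0.810). The authors' deposited table gave 1448694_at a ratio of 1.74, induced over control, with an unadjusted p of 0.00663, and 1417409_at a ratio of 1.08 (0.328). Induced and control below therefore name the groups as labelled.

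Iron-sulfur clusters are small inorganic cofactors that carry electrons and support catalysis. In mitochondria the cysteine desulfurase Nfs1 releases sulfur from cysteine while bound to the small protein Lyrm4, also known as Isd11, which keeps it stable. The cluster forms on the scaffold Iscu, the J-protein Hscb and an Hsp70 chaperone help to release it, and Glrx5 passes it on. Isca1 and Isca2 act in the making of the larger, cubane-type cluster, and Nfu1 delivers such clusters to target enzymes such as lipoate synthase. Erythroblasts depend on this pathway in part because mammalian ferrochelatase, which inserts iron into haem, carries a cluster. Separately, loss of Glrx5 causes anaemia in zebrafish.

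Promoters are shown for the members whose induced and control arrays did not overlap. RefSeq's table of 300-base windows on mouse build GRCm38.p6, running from 250 bases before the gene start to 50 after it, held 6 of the 8 members, and Iscu and Hscb are named without one. Capitals mark every match, on either strand, to TGANTCA (the AP-1 site, bound by c-Jun dimers), TGACGTCA (the cAMP response element), AGATAA (read by erythroid factors such as Gata1) or CCAAT (bound by NF-Y), and no 2 matches overlapped.
Lyrm4 promoter, chr13:36117308-36117607, minus strand: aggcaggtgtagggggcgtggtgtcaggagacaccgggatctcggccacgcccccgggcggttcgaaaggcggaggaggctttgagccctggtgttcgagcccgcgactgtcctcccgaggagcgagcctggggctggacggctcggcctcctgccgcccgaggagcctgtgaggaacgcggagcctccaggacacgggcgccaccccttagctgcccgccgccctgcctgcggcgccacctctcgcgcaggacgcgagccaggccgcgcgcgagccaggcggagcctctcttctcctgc
Isca1 promoter, chr13:59769740-59770039, minus strand: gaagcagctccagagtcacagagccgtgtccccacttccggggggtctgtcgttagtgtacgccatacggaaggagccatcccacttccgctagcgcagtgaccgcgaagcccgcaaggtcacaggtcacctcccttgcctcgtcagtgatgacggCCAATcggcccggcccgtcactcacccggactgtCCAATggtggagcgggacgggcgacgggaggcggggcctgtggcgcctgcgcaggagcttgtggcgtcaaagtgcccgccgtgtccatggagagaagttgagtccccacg
Glrx5 promoter, chr12:105032368-105032667, plus strand: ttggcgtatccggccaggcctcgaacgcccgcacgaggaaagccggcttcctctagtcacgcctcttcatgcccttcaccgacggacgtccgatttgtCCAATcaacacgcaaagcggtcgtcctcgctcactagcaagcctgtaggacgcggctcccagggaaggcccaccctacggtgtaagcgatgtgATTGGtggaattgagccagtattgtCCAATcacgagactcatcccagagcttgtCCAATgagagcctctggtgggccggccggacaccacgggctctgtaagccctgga
Nfu1 promoter, chr6:87009586-87009885, plus strand: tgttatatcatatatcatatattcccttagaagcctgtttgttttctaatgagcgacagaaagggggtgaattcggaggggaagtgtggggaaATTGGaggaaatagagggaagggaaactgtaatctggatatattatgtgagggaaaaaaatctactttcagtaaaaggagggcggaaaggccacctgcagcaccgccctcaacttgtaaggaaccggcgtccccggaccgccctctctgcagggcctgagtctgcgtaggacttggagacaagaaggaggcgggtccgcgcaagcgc
In these 4 windows the capitals are all matches to CCAAT, 4 in Glrx5, 2 in Isca1, 1 in Nfu1 and 0 in Lyrm4. Over the 6 member windows, TGANTCA occurred in 0 (7.81% of 32851 windows in the table held it), TGACGTCA in 0 (1.79% of all windows), AGATAA in 1, that of Isca2 (11.2%), and CCAAT in 4 (37.4%). The absence of a match says only that these letters are not in this window.

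Lyrm4 was read by a single probe set, 1455588_at. Its MAS5 signal, in arbitrary units, was 98.2, 67.8 and 82.2 on the induced arrays, against 15.5, 20.7 and 11.3 on the control arrays. Every induced array lay above every control array, with the lowest induced signal far above the highest control signal. The means were 82.7 ± 15.2 in induced and 15.8 ± 4.71 in control arrays (SD, n = 3 each), a ratio of 5.23. On the log2(signal + 16) scale used for all fits, which understates the change of dim genes, the difference was 1.63, the seventh highest among 16239 genes when ordered with its sign. For this probe set the ratio in the authors' deposited table, turned to induced over control, was 5.99. Across all 6 arrays, leaving out any 1 of them kept the log2 difference between 1.52 and 1.74. Lyrm4 was chosen for its difference on these same arrays, so the gap and this range describe the rise and do not test it.

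The desulfurase that Lyrm4 binds was read near background. Background was set at a signal of 2. None of 27 control probe sets for the bacterial transcripts Dap, Lys, Phe, Thr and Trp exceeded it. The brightest of 3 Nfs1 probe sets (1416373_at) had 0.5, 3.3 and 1.3 on induced arrays, against 1.9, 2.1 and 2.5 on control arrays, and the groups overlapped. Its log2 change was -0.040 with a 95% interval of -0.18 to 0.10 (limma, adjusted p = 0.878). The other Nfs1 probe sets stayed at or under 2 on all arrays, and one of these (1442017_at) was too dim to be tested. Hscb (1427927_at) also stayed at or under 2 on all arrays, with 0.9, 1.6 and 1.2 in induced and 0.6, 1.0 and 0.2 in control arrays, so no fold is given. For both genes a change could have been missed at this signal.

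The scaffold gene Iscu was read above background and did not pass the test. Its probe set (1452579_at) had 12.6, 9.4 and 17.2 on induced arrays, against 14.3, 9.6 and 9.9 on control arrays. The groups overlapped, and the log2 change of 0.088 had a 95% interval of -0.14 to 0.31 (limma, adjusted p = 0.810). Its sign was not stable, with -0.043 after quantile normalization and -0.039 after scaling to 1 median of bright probe sets.

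**Figure D1:**
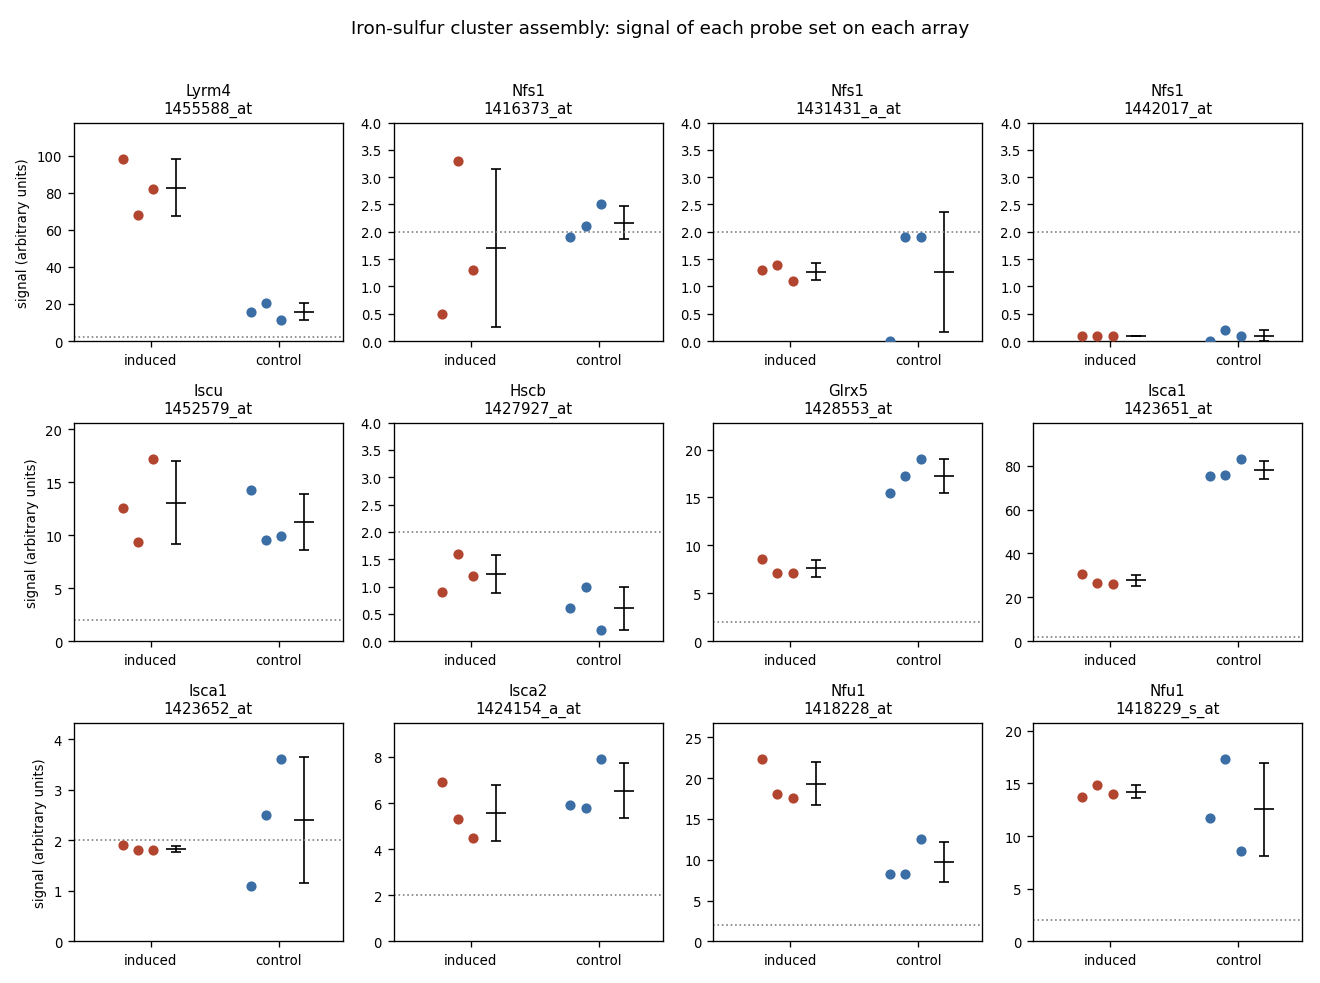
MAS5 signal (vertical axis, arbitrary units, a separate scale in each panel) of the 12 member probe sets on the 3 induced (red) and 3 control (blue) arrays, with the mean and SD in black and the background signal of 2 as a dotted line. Lyrm4 and the first Nfu1 probe set lie higher on every induced array, Glrx5 and the first Isca1 probe set lie lower on every induced array, and Nfs1 and Hscb lie around or under the background line.

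Of the genes that act after the scaffold, Isca1 and Glrx5 fell and Nfu1 rose. Isca1 (1423651_at) had 30.4, 26.7 and 25.9 on induced arrays, against 75.4, 75.8 and 83.0 on control arrays. No arrays overlapped, and the replicates of each group lay close together. The means were 27.7 ± 2.40 in induced and 78.1 ± 4.28 in control arrays (SD, n = 3 each), 2.82-fold lower, and the log2 change was -1.11 with a standard error of 0.06 (limma, adjusted p = 1.85e-05). A second Isca1 probe set (1423652_at) was near background, at 1.8 to 1.9 in induced and 1.1 to 3.6 in control arrays, and did not pass (adjusted p = 0.850).

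Glrx5, the glutaredoxin that hands the cluster on, had 8.6, 7.1 and 7.1 on induced arrays, against 15.5, 17.2 and 19.0 on control arrays (1428553_at). Its highest induced signal stood well below its lowest control signal. The means were 7.60 ± 0.87 in induced and 17.2 ± 1.75 in control arrays (SD, n = 3 each), 2.27-fold lower, and the log2 change was -0.49, with a standard error of 0.06 (limma, adjusted p = 0.00111). Both falls were larger after any rescaling of the arrays tried, at -1.21 to -1.32 for Isca1 and -0.55 to -0.62 for Glrx5.

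Nfu1, the late cluster carrier, had 22.3, 18.1 and 17.5 on induced arrays, against 8.3, 8.3 and 12.5 on control arrays, by its probe set 1418228_at. The groups did not overlap, and control 3 came nearest to the induced arrays. The means were 19.3 ± 2.62 in induced and 9.70 ± 2.42 in control arrays (SD, n = 3 each), a ratio of 1.99, and the log2 change was 0.46 with a standard error of 0.08 (limma, adjusted p = 0.00833). The other Nfu1 probe set (1418229_s_at) disagreed: it had 13.7, 14.9 and 14.0 on induced arrays, against 11.7, 17.3 and 8.6 on control arrays, which overlapped (log2 change 0.09, adjusted p = 0.778). The rise therefore rests on 1 of 2 probe sets, and it lost its call without control 2 (adjusted p = 0.0518).

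Isca2, the partner of Isca1, had 6.9, 5.3 and 4.5 on induced arrays, against 5.9, 5.8 and 7.9 on control arrays (1424154_a_at). The groups overlapped, and the log2 change of -0.063 had a 95% interval of -0.20 to 0.07 (limma, adjusted p = 0.757). Isca1 and Isca2 thus gave different calls, and the difference between them was not tested.

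In counts, 1 of the 7 members besides Lyrm4 rose, 2 fell and 4 did not pass at an adjusted p under 0.05 over 31526 probe sets, with each gene represented by its brightest probe set. Over all 16239 genes tested the shares were 5.14% higher and 1.82% lower. Over all probe sets tested, 5.54% passed, 4.19% (1320) being higher and 1.35% (427) lower, a split that became 975 and 853 after quantile normalization, and the induced and control arrays did not overlap for 18.0%. The calls depended on the pseudocount: with log2(signal + 1) none of the 7 passed limma's adjusted threshold (0 rose and 0 fell), while at an unadjusted p under 0.05 the counts were still 1 and 2. In the authors' deposited table the unadjusted p-values were 5.96e-05 for Isca1, 0.0131 for Glrx5 and 0.00345 for the higher Nfu1 probe set, and after Benjamini-Hochberg adjustment over the same probe sets only Isca1 passed among the 7.

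**Figure D2:**
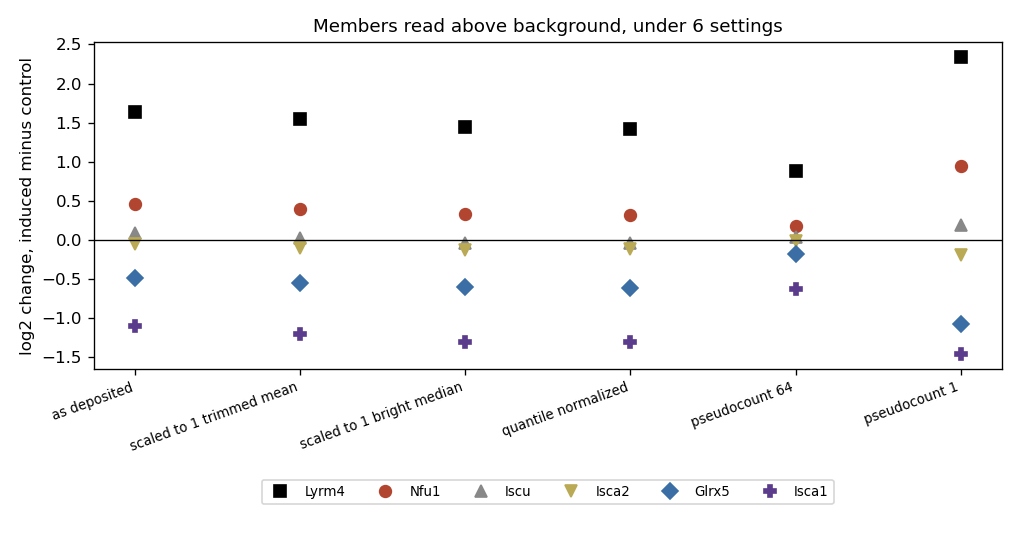
Log2 change, induced minus control (vertical axis), of the 6 members read above background, under 4 ways of scaling the arrays at a pseudocount of 16 and under pseudocounts of 64 and 1 (horizontal axis). Lyrm4 lies above 0 and Isca1 and Glrx5 below 0 under every setting shown, while Iscu lies near 0 and changes side.

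The whole table bears on how these values read. Bright probe sets were higher on induced arrays as a body: 2868 probe sets averaged above 10, and their median ratio, induced over control, was 1.33. Their median log2 change was 0.24 as deposited and 0.057 after quantile normalization. Summed signal was 222930 to 278500 on induced and 189287 to 214237 on control arrays. The 5' probe set of Gapdh, a measure of RNA integrity, had 25.8% to 28.9% of the signal of its 3' probe set on induced arrays, and 12.5% to 22.8% on control arrays. Control 2 had 346 signals of 0, against 4651 to 7813 on the other arrays. The part of these differences in the members' values was not tested.

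Markers of marrow cell types moved with the groups. Beside the counts of calls below, the shares over all genes tested were 5.14% higher and 1.82% lower. Erythroid markers summed to 302.9 to 368.6 on induced and 1275.8 to 1482.6 on control arrays, with 11 of 12 lower, 0 higher and Epb42 not called. Isca1 and Glrx5 thus fell on the same arrays as the erythroid list, and the part of that list in their fall was not tested. Higher on every induced array were the summed signals of neutrophil (9962.9 to 11632.3 in induced and 8438.2 to 9660.4 in control arrays), eosinophil (221.0 to 269.8 and 22.2 to 31.8), B cell (189.9 to 246.1 and 101.1 to 108.2), monocyte and macrophage (76.4 to 98.0 and 55.0 to 69.6), megakaryocyte (34.4 to 51.9 and 14.2 to 26.2), T cell (6.1 to 7.5 and 3.1 to 4.7) and stromal markers (72.6 to 96.3 and 25 to 45.4). Of these lists 2 of 8 neutrophil (1 other was lower), 3 of 4 eosinophil, 2 of 6 B cell, 4 of 7 monocyte and macrophage (1 other lower), 2 of 4 megakaryocyte, 0 of 3 T cell and 3 of 4 stromal markers tested were called higher. The neutrophil markers were mixed. S100a8 and S100a9, which make up most of that sum, had ratios of 1.31 and 1.26, under the 1.33 for bright probe sets in general. Ltf was called lower (ratio 0.76), and Ngp (0.83) and Camp (0.74) were not called. Csf3r, Cxcr2 and Mmp8 had higher means on induced arrays and were not called. The monocyte and macrophage markers were mixed too: C1qb was among the 4 called higher (ratio 5.07), and F13a1 was called lower (4.84-fold). C1qa and C1qc were not called. Of the megakaryocyte markers, Pf4 and Ppbp were called higher, while Itga2b and Gp9 lay near background and were not called. Lyrm4 and Nfu1 were higher on the same arrays, and the part of the marker lists in this was not tested. Markers at or under background on all arrays were Pax5 of B cells, Ccr3 and Il5ra of eosinophils, Cd3g of T cells, Lepr of stroma, and Ckm, Acta1 and Tnnt3 of skeletal muscle, whose list summed to 0.5 to 3.6 on induced and 0.3 to 3.6 on control arrays. In whole marrow, fewer cells of a type and less RNA per cell cannot be told apart.

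**Figure D3:**
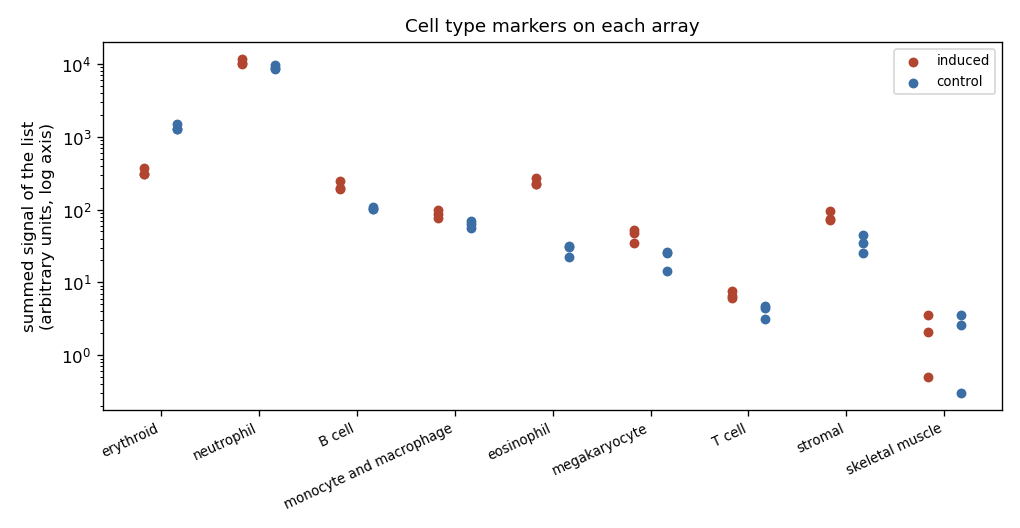
Summed signal (vertical axis, arbitrary units, log axis) of each list of cell type markers on each induced (red, left) and control (blue, right) array. The erythroid list lies lower on all induced arrays, at 302.9 to 368.6, against 1275.8 to 1482.6 on control arrays, and the eosinophil list lies higher on all of them.

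The wider pathway changed in few genes and in both directions. Of 70 genes in 5 lists, 67 were on the array with a probe set of their own and 66 were bright enough to be tested. Of these 7 were higher (10.6%) and 4 lower (6.06%), against the shares of 5.14% and 1.82% over all genes given above, and 55 did not pass. The lists were chosen with earlier results of these data known, so the shares are a description and their difference was not tested. The median log2 change of the 66 listed genes was 0.015, against -0.0014 over all genes tested. The number of listed genes called higher was sensitive to processing, and those called were not always among these 7. It was 1 after quantile normalization and 0 at a pseudocount of 1. At that pseudocount 9 of the 66 genes were higher at an unadjusted p under 0.05 (limma). It was 3 without control 2, namely Abce1, Sdhb and Hspa9, the last of which was not called on all arrays. It was 4 without control 1, control 3, induced 1 or induced 3. Among called genes with several probe sets, those that passed were 2 of 2 for Ciao2a, 3 of 4 for Fech, 1 of 2 for Slc25a37, 4 of 6 for Ndufs8, 1 of 3 for Ndufv2 and Dna2, and 2 of 3 for Rsad2 and Abce1. The number of listed genes called lower was 4 after quantile normalization and 2 at a pseudocount of 1.

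Among 13 tested genes of mitochondrial assembly and maturation, 1 fell and 1 rose. Slc25a37, mitoferrin 1, which brings iron into the mitochondria of erythroblasts, had 11.5, 10.6 and 12 on induced arrays, against 82.1, 93.2 and 84.4 on control arrays. It was 7.62-fold lower, the largest fall in the 5 lists (log2 change -1.90, standard error 0.06; limma, adjusted p = 5.71e-07). Grpel1, the nucleotide exchange factor of the mitochondrial Hsp70, had 11.2, 14.4 and 10.6 on induced arrays, against 2.7, 2.7 and 8.0 on control arrays (log2 change 0.46, adjusted p = 0.0256). Its groups did not overlap, but it lost its call without control 1, control 2, induced 1, induced 2 or induced 3 (adjusted p = 0.05004 to 0.126). Hspa9, the Hsp70 of cluster transfer, averaged 17.6 ± 2.14 in induced and 10.7 ± 3.68 in control arrays (adjusted p = 0.0812), and Ndufab1, the acyl carrier protein that binds Lyrm4, 16.2 ± 7.19 and 6.03 ± 1.54 (SD, n = 3 each; adjusted p = 0.0599). Neither passed the test as reported, and both calls depended on the processing. Ndufab1 passed with a 60th percentile filter, an intensity trend or a replicate block in limma, or without induced 2 (adjusted p = 8.45e-05 to 0.0387). Hspa9 passed after scaling to 1 trimmed mean, with array weights, or without control 2 (limma, adjusted p = 0.0183 to 0.0473). After quantile normalization neither passed (0.0826 for Ndufab1 and 0.352 for Hspa9).

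Cytosolic assembly held 1 rise and 0 falls among 10 genes (median log2 change 0.08). Ciao2a, a targeting factor of the cytosolic machinery known for the maturation of iron regulatory protein 1, had 179.3, 136.2 and 152.1 on induced arrays, against 99.8, 102.5 and 113.4 on control arrays. It was called higher by both of its probe sets, with a ratio of 1.48 for the brighter (log2 change 0.50, limma adjusted p = 0.0102), which lies near the ratio of 1.33 for bright probe sets in general. After quantile normalization the change was 0.16 (adjusted p = 0.0687), and the call was also lost without control 2 (0.0632). Glrx3, Ciao2b and Mms19, with the next smallest p-values, did not pass (adjusted p = 0.138 to 0.200).

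Of the proteins that carry clusters in mitochondria, 3 rose and 1 fell among 13 (median log2 change 0.10). Fech, ferrochelatase, had 37.6, 33.9 and 35.0 on induced arrays, against 99.5, 74.6 and 86.2 on control arrays, a fall called by 3 of its 4 probe sets (2.44-fold lower for the brightest, adjusted p = 1.96e-04). Fech fell on the arrays where erythroid markers were low, as did every gene called lower, because the arrays form only 2 groups. The part of the erythroid markers in its fall was not tested. The rises were Sdhb, the cluster subunit of succinate dehydrogenase (ratio 2.19, adjusted p = 0.0156), and the complex I subunits Ndufs8 (1.82, 0.0191) and Ndufv2 (1.71, 0.0354). Another Ndufv2 probe set lay the other way, with 8.6, 7.2 and 7.0 on induced arrays, against 9.7, 10.0 and 9.6 on control arrays, and did not pass (limma, adjusted p = 0.246). Sdhb lost its call without control 3 (0.0708), Ndufs8 without control 2, control 3, induced 1 or induced 3 (0.0544 to 0.0857) and Ndufv2 when any 1 of the 5 arrays besides induced 3 was left out (0.0529 to 0.124), and all 3 lost it after quantile normalization (0.0604 to 0.134).

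Of 21 tested cluster proteins of the cytosol and nucleus, 1 rose and 2 fell (median log2 change -0.012). Rsad2, a radical SAM enzyme induced by interferon, had 55.1, 38.1 and 47.7 on induced arrays, against 194.4, 186.1 and 201.8 on control arrays, 4.13-fold lower (adjusted p = 1.67e-05). Abce1, the ribosome recycling factor, had 46.3, 36.1 and 52.3 on induced arrays, against 15.0, 20.3 and 23.8 on control arrays, a ratio of 2.28 (adjusted p = 0.00369). The groups of both genes were well apart. The third Abce1 probe set, at 2.8 or lower on every array, lay the other way and did not pass (adjusted p = 0.505). Dna2, a replication nuclease and helicase, averaged 3.93 ± 0.45 in induced and 7.43 ± 1.21 in control arrays (SD, n = 3 each; limma, adjusted p = 0.0376) and lost its call when any 1 of the 5 arrays besides control 1 was left out (0.0912 to 0.134). Rtel1, a DNA helicase, did not pass (adjusted p = 0.163).

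Lyrm4 belongs to a family of small proteins with a leucine-tyrosine-arginine motif that serve mitochondrial complexes. Of 9 other family members tested, 1 rose, Ndufa6 of complex I, with 9.7, 10.7 and 13 on induced arrays, against 4.4, 2.5 and 6.8 on control arrays (ratio 2.44, adjusted p = 0.0182). Leaving out control 1, control 2 or induced 3 ended its call (adjusted p = 0.0604 to 0.0819). The family's median log2 change was -0.034, and Lyrm1, Lyrm2 and Etfrf1 did not pass (adjusted p = 0.358 to 0.752). Sdhaf3 and Lyrm7 were at or under background on all arrays.

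**Figure D4:**
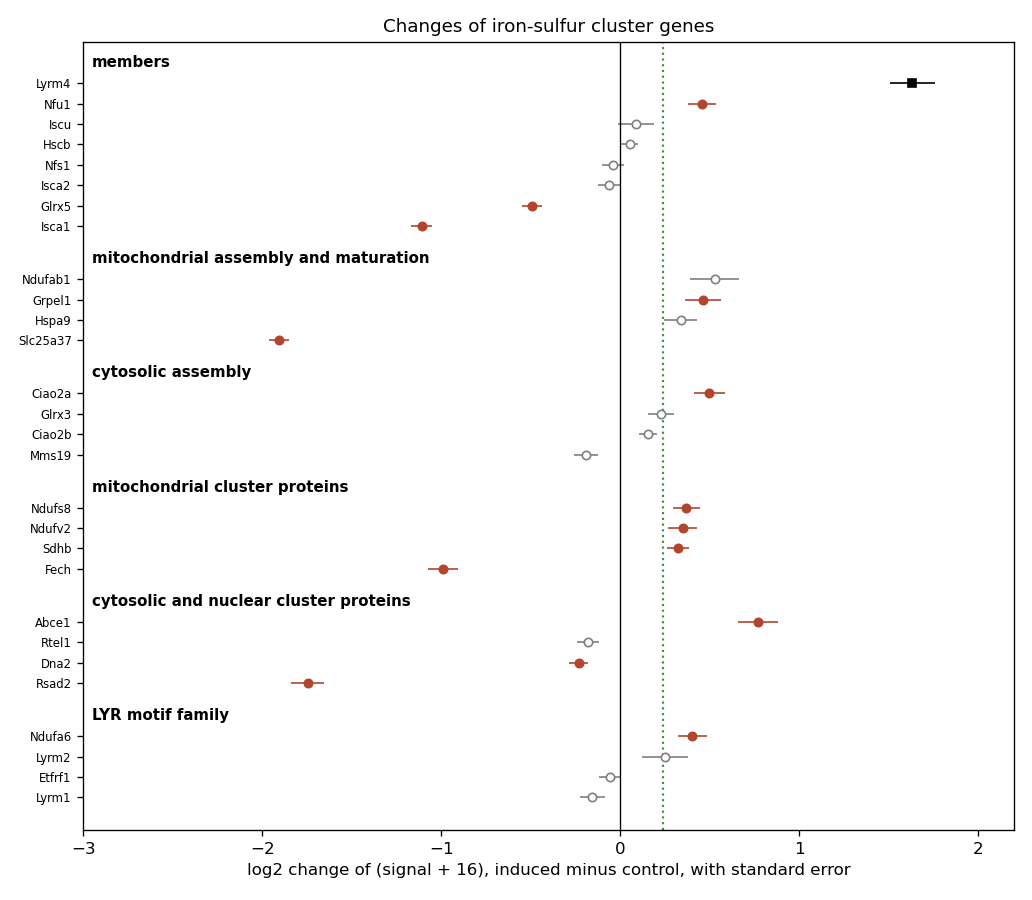
Log2 change of (signal + 16), induced minus control, with its standard error (horizontal axis), of the 8 members and of the 4 genes with the smallest p in each list (vertical axis). Filled red points passed an adjusted p under 0.05, open points did not, the black square is Lyrm4, and the green dotted line marks the median change of 0.24 of bright probe sets. Slc25a37, Rsad2, Isca1 and Fech lie farthest to the left of 0, and Lyrm4 farthest to the right.

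The genes beside Lyrm4 on the chromosome were near background. In the RefSeq order the protein-coding neighbours are Rpp40 and Ppp1r3g before it and Fars2 and Nrn1 after it. Fars2, the mitochondrial phenylalanyl-tRNA synthetase, had 2.5, 2.0 and 2.0 on induced arrays, against 1.0, 1.6 and 1.1 on control arrays, which did not overlap but did not pass the test (limma, adjusted p = 0.564). Rpp40, Ppp1r3g and Nrn1 did not exceed 2 on any array.

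Among 16238 other genes, those whose centred log2(signal + 16) profile over the 6 arrays lay nearest to that of Lyrm4 were Clec4d, Ccl9, Fos, Cstb and Spp1, with root mean square differences of 0.17, 0.17, 0.18, 0.19 and 0.19. The arrays form 2 groups, and Lyrm4 was chosen for its step between them. A near profile is therefore largely a step of similar size on this scale. The ratios of mean signals were 3.72, 3.63, 19.6, 3.82 and 13.2 in that order, against 5.23 for Lyrm4. Regulation in common was not tested. Clec4d, a lectin receptor of myeloid cells, had 103.7, 77.9 and 92.0 on induced arrays, against 23.2, 25.5 and 24.9 on control arrays. Ccl9, a chemokine, had 110.2, 91.8 and 97.5 on induced arrays, against 24.8, 29.6 and 28.1 on control arrays. Fos, which forms AP-1 dimers with Jun, had 62.1, 48.8 and 37.8 on induced arrays, against 1.1, 5.6 and 0.9 on control arrays, without overlap.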

How the data were processed

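Per the labels' protocols, total RNA was extracted with Trizol, and amplified cDNA was fragmented and labelled with biotin. The authors deposited a linear signal intensity per probe set, from MAS5, as the submitters' processing notes say; its version, scaling target and build are not given in the sources used here. The authors' deposited ANOVA table holds an unadjusted p-value, a linear ratio and signed scores, per the file headers; the values behind it are not stated. Groups came from the labels. Replicates are pools of 3 mice, so p-values measure the spread between pools, and the number of arrays limits the precision.

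Signals were used as deposited and taken to log2(signal + 16). Of all signals 76.9% were 2 or lower. After leaving out 64 control probe sets, the probe sets whose average log2 value exceeded the 30th percentile were compared, induced minus control, with limma 3.58.1 (R 4.3.3) and Benjamini-Hochberg adjustment over 31526 probe sets. Adjusted p-values in the text are from this fit unless stated. Each gene was represented by its brightest probe set with 1 symbol, and 1723 of 20678 symbols were updated through RefSeq synonyms.

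The members and lists were chosen with earlier results of these data known. Named genes were the members, the 4 genes of smallest p in each list, Lyrm4's neighbours and the 5 nearest profiles. Jun, Sdhaf3, Lyrm7, Epb42, the named neutrophil, monocyte and macrophage, and megakaryocyte markers, and the cell type markers at background were added after their values were seen.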

Additional observations from a re-analysis of the deposited data

How the results depend on the processing

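Counts over all probe sets were 1320 higher and 427 lower as reported. The falls numbered 853 after quantile normalization and 865 after scaling to 1 median of bright probe sets. The counts were 110 higher and 101 lower at a pseudocount of 1, 801 higher at a pseudocount of 64, 595 and 246 without a filter, and 339 and 274 with the authors' deposited p-values after adjustment; leaving out 1 array gave 879 to 1363 higher and 277 to 437 lower. Of the members besides Lyrm4, 0 rose and 0 fell at a pseudocount of 1, 0 rose without a filter, and 0 rose and 1 fell with the authors' p-values; at an unadjusted p under 0.05 the counts under these settings were 1 higher and 2 lower. Leaving out 1 array gave 0 to 1 rises and 2 falls among them, and the 0 came without control 2. Of the 66 pathway genes tested, the rises numbered 1 after quantile normalization, 3 after scaling to 1 median of bright probe sets, 0 at a pseudocount of 1 (9 unadjusted), 3 at a pseudocount of 64, 1 without a filter and 2 with the authors' p-values; the falls numbered 2 at a pseudocount of 1. Leaving out 1 array gave 3 to 6 rises and 3 to 4 falls. The Lyrm4 difference was 2.34 at a pseudocount of 1, 0.87 at 64 and 2.58 in the authors' deposited table. Without 1 array it was 1.52 to 1.74, a description on the arrays by which Lyrm4 was chosen. Differences that changed sign were those of Nfs1 (-0.10 to 0.0085 when 1 array was left out, 0.16 in the authors' table), Iscu (-0.043 after quantile normalization, -0.039 after scaling to 1 median, -0.012 to 0.18 when 1 array was left out, -0.096 in the authors' table), Rpp40 (-0.046 to 0.0042 when 1 array was left out, 7e-04 in the authors' table) and Nrn1 (-0.060 to 0.012 when 1 array was left out), none of which passed the test under any setting. Isca1 kept its call under 17 of 18 alternatives and Glrx5 under 16, with Isca1 lost at a pseudocount of 1 (adjusted p = 0.0852) and Glrx5 there (0.231) and with the authors' p-values (0.166); Nfu1 kept it under 14. Deviations of same-numbered induced and control arrays correlated at -0.069, 0.038 and -0.030, and 0 of 3 induced arrays correlated best with their own number, so the numbers were not taken as pairs; with the replicate block 1 member rose and 2 fell, 6 pathway genes rose and 3 fell, and 1052 probe sets were higher and 325 lower. Signal over background limits Nfs1, Hscb and the dim pathway genes. The cause of these differences was not tested.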
